A study of Mus musculus with 10 samples.

Results

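Glycolysis was followed here through 10 genes that run from the import of glucose to the export of lactate: *Slc2a1*, *Hk2*, *Pfkp*, *Aldoa*, *Tpi1*, *Pgk1*, *Pgam1*, *Eno1*, *Ldha* and *Slc16a3*. They were chosen by symbol for their place in the pathway, but with earlier results of these data known. The steps of *Gpi1*, *Gapdh* and *Pkm* are not among them. The 10 symbols take 11 of the 55401 gene rows, because *Aldoa* stands on 2 rows. Each gene was compared between 5 *Mir25* knockout (KO) tumors and 5 non-targeting control (NTC) tumors. All 10 passed the filter on low counts.

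Glycolysis splits glucose into pyruvate in the cytoplasm and yields ATP on the way. Many tumors run it fast even where oxygen is present and turn the pyruvate into lactate, which leaves the cell through monocarboxylate transporters. Genes of the pathway are textbook targets of the hypoxia-inducible factor HIF-1, and activated leukocytes use the pathway as well, so a bulk tumor sample measures the sum of both.

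The study asked how loss of miR-25 in melanoma cells changes the response of tumors to immunotherapy. B16F10, a melanoma cell line of C57BL/6J mice, was injected under the skin of syngeneic mice, which were female in all experiments of the study. The tumor cells were either *Mir25* KO or NTC, both made with CRISPR-Cas9, and the groups differed in nothing else that the labels give. Every mouse, NTC included, received Comb, which is GVAX (1000000 irradiated B16 cells secreting GM-CSF, on days 1 and 4) with αPD-1 (10 mg/kg on days 6, 9 and 12), and tumors were taken on day 15. The guide RNA that these cells carried, and whether a line was 1 clone, are not given in the sources used here. The precursor row *Mir25* had no read in any library, and the deletion can thus not be seen in these counts.

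The KO libraries held 23243707 to 27006075 reads on genes and the NTC libraries 11896643 to 28682130. The lowest total was that of NTC replicate 1, where 42.9% of reads fell on no annotated gene (17.5% to 28.2% elsewhere) and 33193 genes had a count (22192 to 25435 elsewhere). Values are therefore also given for the 9 tumors without it. The 10 melanocyte marker genes summed to 12555 to 20863 CPM (counts per 1000000 reads, normalised) in the KO tumors and to 12093 to 22926 CPM in the NTC tumors, and none of them was at 0 in any tumor. Of these markers 9 had a lower level in KO, with a median log2 fold change of -0.20, and without NTC replicate 1 all 10 did, with a median of -0.36. With a leukocyte score as covariate the median was 0.096. Their part in the results was not tested.

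Short sequences of 2 kinds were searched in these genes, for the study's question and for the textbook control of the pathway. The first is the pairing of miR-25 with a 3′ UTR, which needs the seed, bases 2 to 8 of the mature miRNA. The mature sequence from RefSeq (GRCm38.p6, chr5:138165332-138165353, minus strand) is printed first with the seed in capitals, and the matching stretch of the *Pgam1* 3′ UTR second with the match to the seed in capitals.
mmu-miR-25-3p: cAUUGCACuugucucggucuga
Pgam1 site: ggagtgatGTGCAATa
*Pgam1* was the single gene of the 10 whose longest annotated 3′ UTR (GENCODE M21) held the letters GTGCAAT. For *Aldoa* the longest 3′ UTR of each of its 2 genes, of 185 and 374 bases, was searched. The match lay at bases 878 to 884 of a 3′ UTR of 885 bases and was followed by an A. Among the genes tested here that have a 3′ UTR, 8.10% (1045 of 12895) held a match, near the 10.0% of the 10 genes. A match of letters is a description and does not show binding.

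The second is the core of the hypoxia response element, ACGTG or GCGTG, searched on both strands between 250 bases before and 50 bases after each RefSeq start site (GRCm38.p6). Of the 10 genes, 9 had a match at a start site, all but *Tpi1*, against 65.8% of the 10964 tested genes with a promoter in the table. Of their 15 promoters 13 had one, against 43.8% of all 32851 promoters. The matches nearest before the start site of 5 of the genes are printed on the strand of the gene, with the motif in capitals. They stand for both ends of the pathway and its committed step. A motif on the other strand appears as CACGT or CACGC.
Slc2a1, chr4:119108709-119108713, plus strand: ccgccccggACGTGctccccagg
Hk2, chr6:82774502-82774506, minus strand: gagcacatcCACGTcactgtccg
Pfkp, chr13:6648790-6648794, minus strand: tcgggcgggGCGTGggcggctcc
Ldha, chr7:46845770-46845774, plus strand: gggttcccgCACGTccgctgggc
Slc16a3, chr11:120949053-120949057, plus strand: gcgcgggggACGTGccgcgcgac
*Ldha* had 7 matches at its first start site, the highest number among these promoters. Of these, 2 pairs overlap, since CACGTG reads as ACGTG on either strand. *Pfkp* had 4 matches and all of them were GCGTG.

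The mean level of 9 of the 10 genes was lower in KO than in NTC tumors, by 18.3% for *Hk2* to 36.7% for *Pfkp*, and that of *Pgam1* was 8.34% higher. None of the 10 passed the threshold, an absolute log2 fold change above 1 with an adjusted p under 0.05 (edgeR's quasi-likelihood test), which 0.0190% of the 15821 genes tested did. DESeq2 called none of them by the same rule either, and called 0.609% of its 15763 genes. At an unadjusted p under 0.05 edgeR had 6 of the 10 lower in KO and none higher, beside 4.85% of all genes tested that were lower at that level. That count was 2 without KO replicate 5 (3.68% of all genes), 3 without KO replicate 1 or 2 or NTC replicate 2 or 4 and with no filter, and 4 without NTC replicate 3. It was 7 without KO replicate 4 and 8 with the muscle score. For settings printed without a percentage the share of all genes was not computed. With the leukocyte score 2 were lower, beside 6.33% of all genes, and *Pgam1* was higher at that level. The median log2 fold change of the 10 was -0.37, and that of all genes tested was 0.0076, with 48.7% of them lower in KO. With the leukocyte score the median of the 10 was -0.15. Without NTC replicate 1 all 10 were lower, beside 51.9% of all genes, with a median of -0.47 beside -0.015 for all genes. None of the 10 passed the threshold in those 9 tumors, where 0.106% of 16078 genes did, and 8 were lower at an unadjusted p under 0.05 by edgeR, beside 8.10% of all genes. The p-values measure the spread between these tumors. In bulk tumors, fewer cells of a type and less RNA per cell cannot be told apart.

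**Figure D1:**
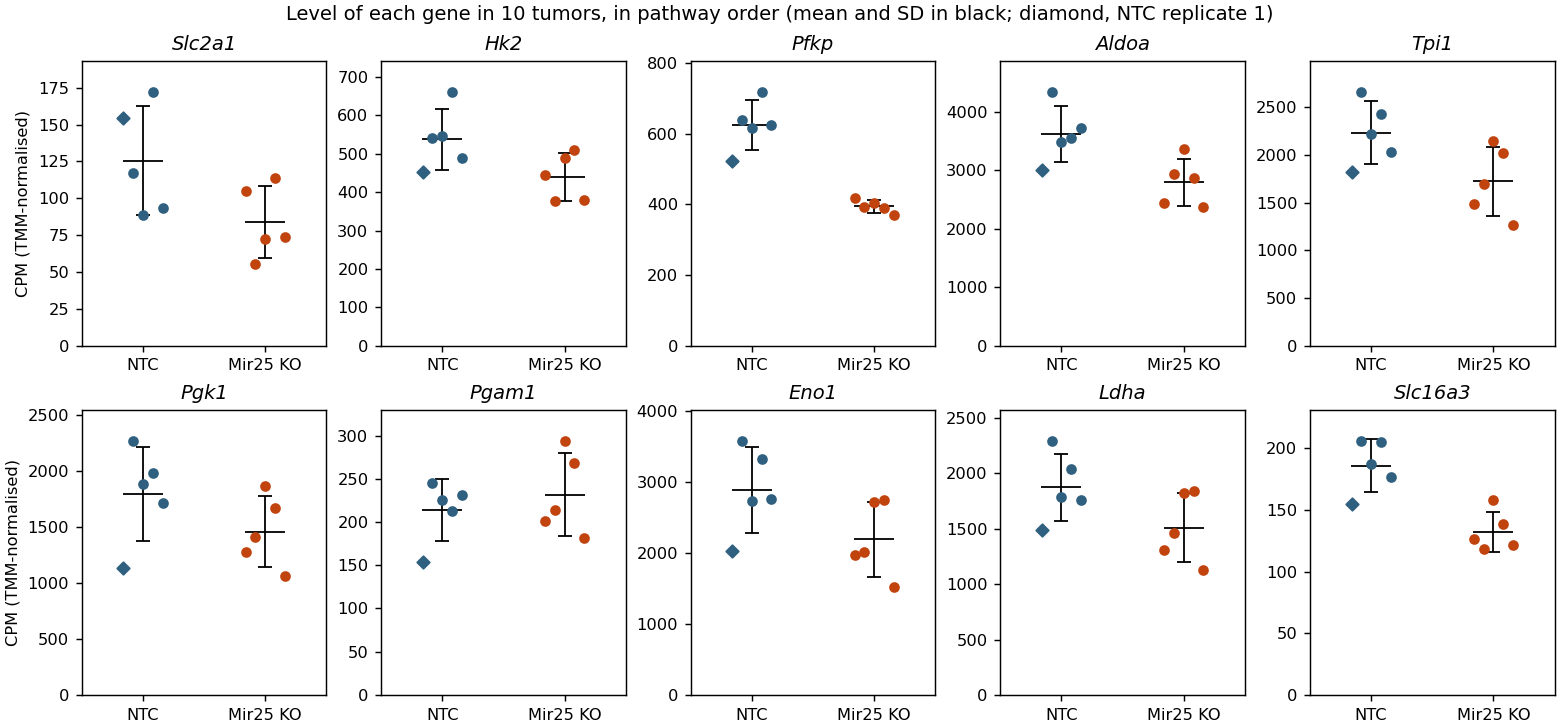
Level of each of the 10 genes (y axes, CPM normalised by TMM factors, from 0) in the 5 NTC and 5 *Mir25* KO tumors, in pathway order, with group mean and SD in black and NTC replicate 1 as a diamond. The groups stand apart for *Pfkp* and overlap for the other 9 genes.

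Glucose enters the cell through GLUT1, the product of *Slc2a1*. It measured 105, 55.4, 72.3, 114 and 73.8 CPM in KO replicates 1 to 5 and 155, 117, 89.0, 172 and 93.8 CPM in NTC replicates 1 to 5. The means were 84.0 ± 24.3 CPM (SD, n = 5) and 125 ± 37.0 CPM (SD, n = 5), a log2 fold change of -0.58 (SE 0.24, edgeR adjusted p = 0.514). NTC replicates 3 and 5 lay below KO replicates 1 and 4, so the groups overlapped. *Slc2a1* was the gene of the 10 with the widest relative spread within a group. Its relative *Slc2a3* (GLUT3) was lower in every KO tumor (21.6 to 31.1 CPM) than in any NTC tumor (34.2 to 56.4 CPM), with a log2 fold change of -0.67 (SE 0.17, edgeR adjusted p = 0.226).

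Hexokinase then phosphorylates glucose and traps it in the cell. *Hk2*, the isoform many tumors raise, measured 444, 375.6, 489, 510.1 and 378.3 CPM in KO and 452, 539.9, 545, 661 and 489.7 CPM in NTC tumors. The log2 fold change was -0.29 (SE 0.13, edgeR adjusted p = 0.556), and KO replicates 3 and 4 lay within the NTC range. *Hk1*, the housekeeping isoform, had means of 175 ± 24.3 CPM in KO and 212 ± 22.9 CPM in NTC tumors (SD, n = 5 each). *Hk3*, an isoform known from myeloid cells, went the other way, with 190.4 ± 131 CPM against 90.8 ± 74.9 CPM (SD, n = 5 each) and overlapping groups.

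Glucose phosphate isomerase and phosphofructokinase carry the sugar to fructose 1,6-bisphosphate, and the second is the committed step. *Pfkp*, the platelet-type phosphofructokinase, showed the clearest separation of the 10 genes. It measured 419, 392, 404, 389 and 369.6 CPM in KO replicates 1 to 5. It measured 522, 637, 617, 719 and 623 CPM in NTC replicates 1 to 5. Every KO tumor lay below every NTC tumor, as was so for 1.47% of all genes tested. The KO tumors lay close together, with a mean of 395 ± 18.4 CPM against 623 ± 70.1 CPM in NTC tumors (SD, n = 5 each). The log2 fold change was -0.66 (SE 0.09, edgeR adjusted p = 0.0589), which is 0.633 times the NTC level and inside the fold threshold. Without NTC replicate 1 it was -0.75 (SE 0.09, edgeR adjusted p = 0.0146), beside 0.155% of all genes that were lower with an adjusted p under 0.05 in that comparison. With DESeq2 over all 10 tumors the adjusted p was 9.66e-08, beside 1.02% of genes that were lower and under 0.05 there. Other settings moved the edgeR adjusted p of *Pfkp* both ways, to 0.0379 with a minimum of 10 counts in every tumor, 0.209 with the replicate block, 0.220 with the muscle score and 0.337 with no filter. With any tumor but NTC replicate 1 left out it was 0.125 to 0.243.

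*Gpi1*, the isomerase of the step before, is not one of the 10 genes but behaved alike in that its groups did not overlap. It ran from 740.4 to 991 CPM in KO and from 1166 to 1554 CPM in NTC tumors, with a log2 fold change of -0.59 (SE 0.12, edgeR adjusted p = 0.143). *Pfkl*, the liver-type phosphofructokinase, overlapped between the groups (254 to 493 CPM in KO and 341 to 565 CPM in NTC tumors).

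Aldolase cleaves the 6-carbon sugar and triosephosphate isomerase interconverts the products. *Aldoa* measured 2443, 2943, 3356, 2876 and 2373 CPM in KO and 3002, 4345, 3489.7, 3548 and 3724 CPM in NTC tumors on its main row. Its log2 fold change was -0.37 (SE 0.14, edgeR adjusted p = 0.478). Only KO replicate 3 reached above the lowest NTC tumor, which was NTC replicate 1, and without that NTC tumor the groups did not overlap. The other *Aldoa* row carried 5 to 36 counts per tumor. GENCODE M21 has 2 genes of this symbol side by side (chr7:126795234-126800751 and chr7:126800790-126809108, both minus strand), and the row names do not say which row is which.

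*Tpi1* measured 1485, 1701, 2146, 2018 and 1269.6 CPM in KO and 1822, 2666, 2218, 2429.8 and 2029 CPM in NTC tumors. The groups overlapped in KO replicates 3 and 4, and the log2 fold change was -0.37 (SE 0.17, edgeR adjusted p = 0.562). *Gapdh*, the next enzyme and a common reference gene for RT-qPCR, was also lower on average, with 2804 ± 485 CPM in KO and 3569.6 ± 561 CPM in NTC tumors (SD, n = 5 each), at -0.35 on the log2 scale (SE 0.16, edgeR adjusted p = 0.573).

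The payoff steps make ATP and pyruvate. *Pgk1*, phosphoglycerate kinase, measured 1276, 1408, 1869, 1672 and 1066 CPM in KO and 1138, 2274, 1883, 1982 and 1721 CPM in NTC tumors. NTC replicate 1 lay at the bottom of the NTC group and among the lowest KO tumors. The log2 fold change was -0.30 with it (SE 0.20, edgeR adjusted p = 0.704) and -0.46 without it (SE 0.18, edgeR adjusted p = 0.215), a move of over 1.5 times.

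*Pgam1*, phosphoglycerate mutase and the gene with the seed match, was the exception. It measured 201, 214, 294, 269 and 181 CPM in KO and 154, 245, 226, 213 and 231 CPM in NTC tumors. KO replicates 3 and 4 were above every NTC tumor, NTC replicate 1 was below every KO tumor, and the other 7 tumors ran together. The log2 fold change was 0.12 (SE 0.16, edgeR adjusted p = 0.861), and it turned to -0.011 without NTC replicate 1 (SE 0.16, edgeR adjusted p = 0.976). Neither differed from 0 by more than its standard error.

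*Eno1*, enolase, measured 1970.4, 2009, 2719, 2752 and 1520.2 CPM in KO and 2027, 3584, 2737, 3331 and 2769 CPM in NTC tumors. Both groups were wide, and KO replicates 3 and 4 lay beside NTC replicates 3 and 5. On the log2 scale the difference was -0.40 (SE 0.20, edgeR adjusted p = 0.623). *Pkm*, pyruvate kinase, closed the pathway with 3237 ± 381 CPM in KO and 4029.6 ± 431 CPM in NTC tumors (SD, n = 5 each), a log2 fold change of -0.32 (SE 0.13, edgeR adjusted p = 0.505).

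**Figure D2:**
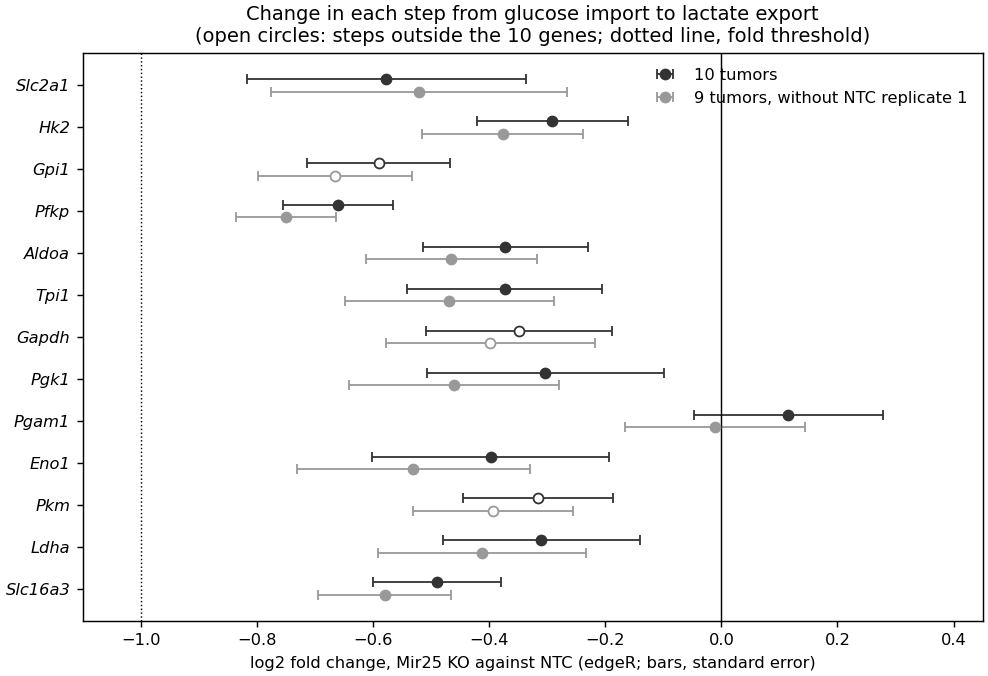
Log2 fold change (x axis, edgeR, bars give the standard error) of each step from glucose import to lactate export, over 10 tumors in dark grey and over 9 tumors without NTC replicate 1 in light grey. The filled circles are the 10 genes and the open circles *Gpi1*, *Gapdh* and *Pkm*. All lie to the right of the threshold at -1, and *Pgam1* is the one step near 0, at 0.12 and -0.011.

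Lactate dehydrogenase turns pyruvate into lactate. *Ldha*, its main subunit in glycolytic cells, measured 1304, 1456, 1821, 1839 and 1130.0 CPM in KO and 1489.9, 2294, 1782, 2038 and 1758 CPM in NTC tumors. KO replicates 3 and 4 lay above 3 of the NTC tumors. This gave a log2 fold change of -0.31 (SE 0.17, edgeR adjusted p = 0.635).

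*Slc16a3* encodes MCT4, the transporter that exports lactate. It measured 127, 118, 158, 139 and 121 CPM in KO and 155, 206, 187, 205 and 177 CPM in NTC tumors. A single KO tumor, replicate 3, reached above a single NTC tumor, replicate 1, and without that NTC tumor the groups did not overlap. The log2 fold change was -0.49 (SE 0.11, edgeR adjusted p = 0.185). With DESeq2 over the 10 tumors the adjusted p was 0.0162, and over the edgeR alternatives it ran from 0.0862 to 0.466. *Bsg*, the chaperone that brings MCT4 to the membrane, ran from 343 to 511 CPM in KO and from 557 to 658 CPM in NTC tumors without overlap, at -0.47 (SE 0.11, edgeR adjusted p = 0.217).

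Leaving out NTC replicate 1, or else KO replicate 3, raised the number of the 10 genes with separate groups from 1 to 3. After NTC replicate 1 was left out these were *Pfkp*, *Aldoa* and *Slc16a3*, and 3.59% of all genes tested were lower in every KO tumor then, against 1.90% without KO replicate 3. *Pfkp* alone stood apart when any other tumor was left out.

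For 7 of the 10 genes the ratio to a partner of the same family was compared, as a measure within each library that does not depend on how libraries were scaled. Both ends of the lactate step differed between the groups. The ratio of *Ldha* to *Ldhb*, the subunit favoured in oxidative tissue, was 11.35, 11.6, 12.0, 12.6 and 11.1 in KO and 8.84, 9.74, 8.30, 8.56 and 7.89 in NTC tumors. Every KO tumor had a higher ratio than any NTC tumor, by 0.44 on the log2 scale (exact permutation test, two-sided, p = 0.00794, adjusted over 7 pairs p = 0.0278). Both genes had lower means in KO tumors, and *Ldhb* the lower fold change. It was lower in every KO tumor (102 to 152 CPM) than in any NTC tumor (168 to 238 CPM), at -0.76 (SE 0.13, edgeR adjusted p = 0.133). Without NTC replicate 1 *Ldhb* was at -0.86 (SE 0.13, edgeR adjusted p = 0.0392).

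The ratio of *Slc16a3* to *Slc16a1*, which encodes the widespread transporter MCT1, moved the other way. It was 1.14, 1.07, 1.15, 1.03 and 1.198 in KO and 1.56, 1.35, 1.47, 1.47 and 1.43 in NTC tumors. Every KO tumor lay below every NTC tumor, by 0.38 on the log2 scale (exact permutation test, two-sided, p = 0.00794, adjusted over 7 pairs p = 0.0278). *Slc16a1* itself overlapped between the groups, with 119 ± 15.7 CPM in KO and 128 ± 20.0 CPM in NTC tumors (SD, n = 5 each). The value 0.00794 is the smallest p that 5 tumors against 5 can give. The ratios still depend on the mix of cells, and no leukocyte or muscle score was fitted to them. The share of other gene pairs that separate in this way was not computed. Without any 1 tumor the differences were 0.41 to 0.48 for *Ldha* to *Ldhb* and -0.41 to -0.36 for *Slc16a3* to *Slc16a1*.

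No difference was found by this test for the other 5 pairs. The difference in log2 ratio was -0.27 for *Pfkp* to *Pfkl*, -0.15 for *Eno1* to *Eno2*, 0.073 for *Slc2a1* to *Slc2a3*, -0.041 for *Aldoa* to *Aldoc* and -0.0085 for *Hk2* to *Hk1*. Their exact permutation p-values, adjusted over the 7 pairs, ran from 0.407 to 0.873. The *Hk2* to *Hk1* ratio was the tightest, between 2.31 and 2.73 in all 10 tumors. The *Pfkp* to *Pfkl* ratio was low in KO replicates 3 and 4 (0.819 and 0.844) and lay between 1.13 and 1.53 in the other 8 tumors.

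**Figure D3:**
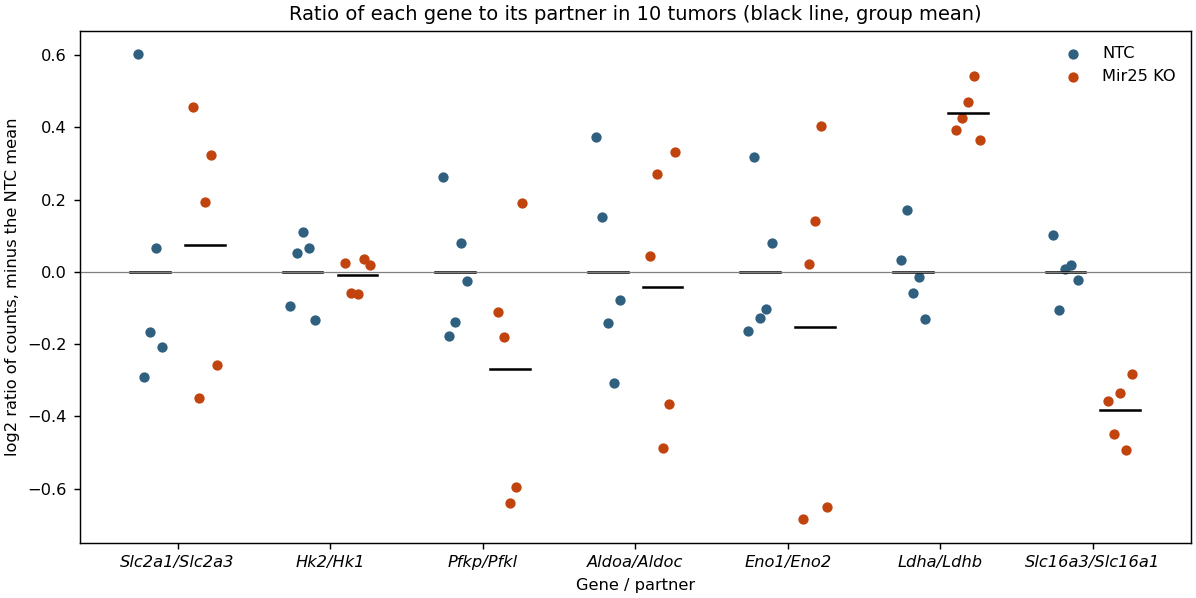
Log2 ratio of the counts of each gene to its partner, minus the mean of the 5 NTC tumors (y axis), in each tumor, with group means as black lines. The *Ldha* to *Ldhb* ratio is higher and the *Slc16a3* to *Slc16a1* ratio lower in all 5 KO tumors, and the groups overlap for the other 5 pairs.

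Compared per length, as CPM per 1000 bases of the union of exons in GENCODE M21, the enzymes from aldolase onward, other than *Pgam1*, were the most abundant. *Aldoa* led with 1103 ± 207 (SD over the 10 tumors) with the 2911 bases of the longer of its 2 genes, and stood at 4018 ± 756 with the 799 bases of the other. It was followed by *Pgk1* at 726 ± 176, *Tpi1* at 719 ± 154, *Ldha* at 511 ± 105 and *Eno1* at 473 ± 121. The means of *Pgk1* and *Tpi1*, and likewise of *Ldha* and *Eno1*, lay closer than their SD over tumors. That SD does not compare 2 genes inside the same tumor, which was not tested. *Pgam1* at 112 ± 20.6 and *Hk2* at 81.8 ± 14.2 came next. *Pfkp* at 38.0 ± 9.70, *Slc16a3* at 30.0 ± 6.28 and *Slc2a1* at 29.9 ± 10.5 closed the order. With the longest transcript as the length, *Eno1* moved from rank 5 to rank 2 and *Pgk1* from rank 2 to rank 5, while the 5 genes at the lower end kept their ranks. The values themselves were then over 1.5 times as high for 5 genes, at 2072 for *Aldoa*, 1254 for *Eno1*, 1231 for *Tpi1*, 932 for *Ldha* and 58.6 ± 14.97 for *Pfkp*, beside 36.7 ± 7.71 for *Slc16a3* and 32.1 ± 11.3 for *Slc2a1*. By either length the means of *Slc16a3* and *Slc2a1* lay closer than their SD over tumors.

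The 10 genes took 0.821% to 1.47% of the reads on genes in KO tumors and 0.681% to 1.80% in NTC tumors. Their levels ran in parallel across tumors. KO replicate 5 had the lowest KO value for 7 of them and KO replicate 2 for the other 3. NTC replicate 1 had the lowest NTC value for 9, all but *Slc2a1*, and NTC replicate 2 the highest for 7. KO replicates 3 and 4 shared the highest KO values of 9 of the 10 genes.

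Over the 10 tumors the log2 CPM of 43 of the 45 gene pairs correlated with r above 0, with a median Pearson r of 0.77. Of the 45, 27 had an adjusted p under 0.05 by permutation (100000 resamples), which pooled both groups. The share of other gene pairs with such values was not computed. The pairs with the highest Pearson r over the 10 tumors were *Eno1* with *Ldha* (r = 0.987, Spearman rho 0.915) and *Tpi1* with *Ldha* (r = 0.987, Spearman rho 0.915), each with an adjusted permutation p of 3.0e-04 for r and 0.00562 for rho. By rho *Tpi1* with *Pgk1* came first (0.964), and without NTC replicate 1 that pair also had the highest r (0.996). Without the 2 tumors farthest from the median of the first gene, r was 0.985 and 0.967. As deviations from the group means r was 0.981 and 0.987. The points share their libraries, their depth and their mix of cells.

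*Slc2a1* and *Pgam1* stood at the edge of this pattern. The median r of *Slc2a1* with the other 9 genes was 0.42, and 0.11 for deviations from the group means, pooled over both groups. That of *Pgam1* was 0.44 and became 0.88 by the same measure. Inside the NTC group it was lowest in replicate 1 (154 CPM), and of the others (213 to 245 CPM) replicate 4 was lowest for *Pgam1* and highest for *Pfkp* and *Hk2*. By Pearson r over the 10 tumors *Pfkp* tracked *Slc16a3* most closely (r = 0.918, Spearman rho 0.867, adjusted permutation p = 0.00236 for r and 0.00672 for rho). By rho *Aldoa* was level with *Slc16a3* (0.867). The r with *Slc16a3* was 0.864 without the 2 tumors farthest from the median and 0.677 for the deviations. For the deviations *Hk2* (0.724) and *Pgk1* (0.682) had a higher r with *Pfkp*.

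Genes outside the 10 whose log2 CPM was most like the mean of the 10 standardised levels, among 10978 genes with a mean of at least 5 CPM, were *Ugp2*, *Rad50*, *Msi2*, *Immt*, *Efl1*, *Epm2a*, *Mreg*, *Hdac2*, *Higd1a* and *Cystm1*. Their r over the 10 tumors ran from 0.972 to 0.983. *Ugp2*, which makes UDP-glucose for glycogen, led with 543 CPM on average in KO and 856 CPM in NTC tumors. Of the other glycolysis genes, *Pkm* ranked 11 and *Pfkl* 23 in this order.

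**Figure D4:**
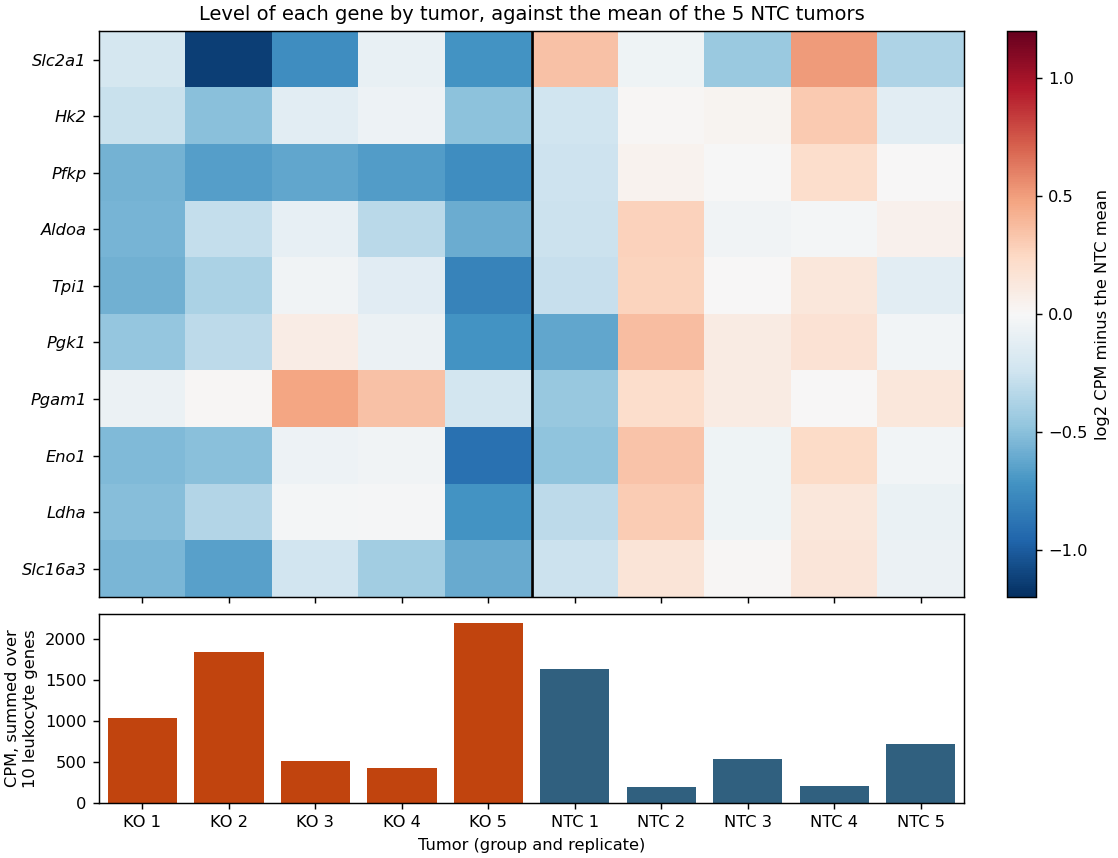
Log2 CPM of each of the 10 genes in each tumor, minus the mean of the 5 NTC tumors (colour scale), above the summed CPM of 10 leukocyte genes in the same tumors (bars, from 0). *Pfkp* is below the NTC mean in all 5 KO tumors, and KO replicates 3 and 4, the KO tumors with the lowest leukocyte sums (505 and 420.3 CPM), hold the highest KO value of the other 9 genes.

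Leukocyte genes differed between the tumors, and *Eno1* was low where they were high. The 10 pan-leukocyte markers summed to 1043, 1849, 505, 420.3 and 2200.0 CPM in KO and to 1642, 195, 533, 199 and 717 CPM in NTC tumors. All 10 had a higher mean log2 level in KO, at a median log2 fold change of 0.85 (1.504 without NTC replicate 1 and 0.53 without KO replicate 5), none passed the threshold, and none was at 0 in any tumor. KO replicates 1, 2 and 5 and NTC replicate 1, the 4 tumors with the highest sums, had the 4 lowest values of *Eno1*, from 1520.2 to 2027 CPM, and the other 6 tumors ran from 2719 to 3584 CPM.

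*Pfkp* did not follow this order inside the KO group. Its 5 KO values stayed between 369.6 and 419 CPM while the leukocyte sum went from 420.3 to 2200.0 CPM. Inside the NTC group *Pfkp* measured 637 and 719 CPM at leukocyte sums of 195 and 199 CPM, 617 and 623 CPM at 533 and 717 CPM, and was lowest, at 522 CPM, in NTC replicate 1 with a sum of 1642 CPM. That lowest NTC value was still above all 5 KO tumors. An edgeR fit with a leukocyte score as covariate gave other values. In it the log2 fold change of *Pfkp* was -0.57 (adjusted p = 0.0501) and that of *Slc16a3* -0.35 (adjusted p = 0.0948). The same fit gave -0.019 for *Pgk1*, -0.099 for *Ldha*, -0.12 for *Eno1*, -0.13 for *Hk2* and -0.17 for *Tpi1*, each moved towards 0 by over 1.5 times. It gave -0.47 for *Slc2a1*, -0.25 for *Aldoa* and 0.30 for *Pgam1*, the last farther from 0 than without the score. The part of leukocytes in these differences was not tested beyond this fit.

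**Figure D5:**
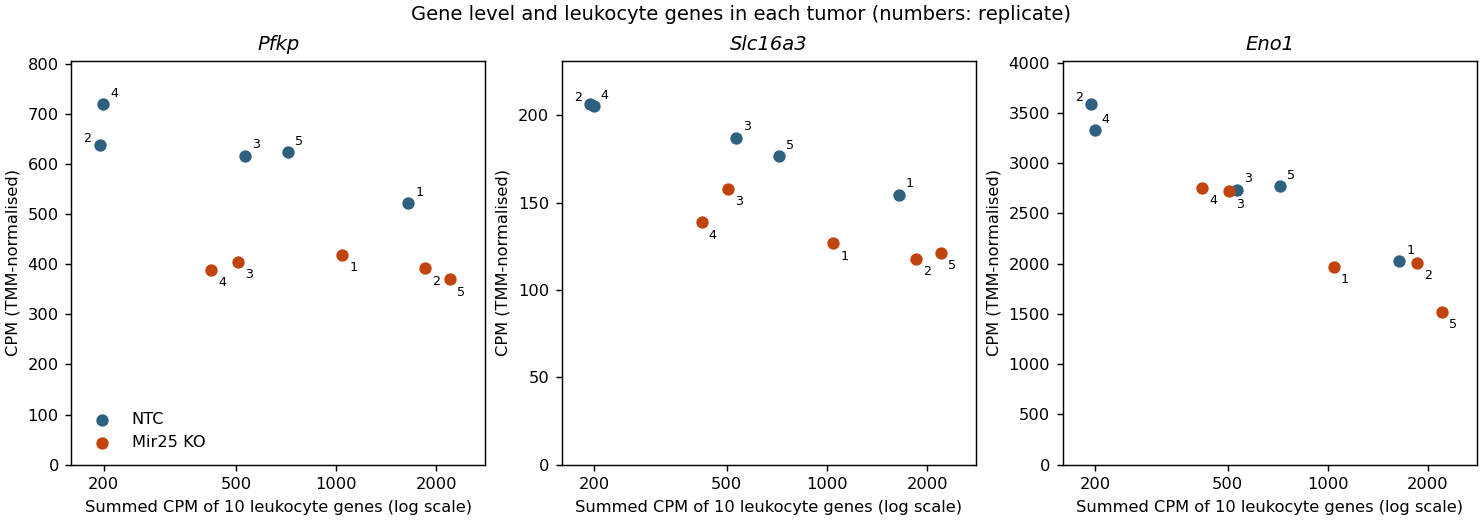
CPM of *Pfkp*, *Slc16a3* and *Eno1* (y axes, from 0) against the summed CPM of 10 leukocyte genes (x axes, log scale) in each tumor, labelled by replicate number. The *Pfkp* values of the KO tumors lie between 369.6 and 419 CPM across the whole range of leukocyte sums, whereas the *Eno1* values of both groups lie lower in the 4 tumors with the highest sums (1043 to 2200.0 CPM).

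Other cell types differed between tumors too. All 10 macrophage markers were detected in every tumor, with sums of 995 to 4403 CPM in KO and 327 to 3783 CPM in NTC tumors. The 10 fibroblast markers summed to 1112 to 6146 CPM in KO and 74.1 to 6862 CPM in NTC tumors. The 10 endothelial markers summed to 153 to 219 CPM and 121 to 266 CPM, and the 10 adipocyte markers to 169.9 to 899.8 CPM and 46.3 to 608 CPM. Skeletal muscle, which carries its own glycolytic isoforms, added up to 262 CPM over 15 markers in KO replicate 4 and 51.8 CPM in KO replicate 3, against 2.46 to 13.2 CPM in the 8 other tumors. With the muscle score as a covariate *Pgam1* turned from 0.12 to -0.066 (edgeR adjusted p = 0.911), and 4 genes moved by over 1.5 times, *Ldha* from -0.31 to -0.53, *Eno1* from -0.40 to -0.64, *Tpi1* from -0.37 to -0.58 and *Pgk1* from -0.30 to -0.47. Of the 15 muscle markers 11 were at 0 in at least 1 tumor. Erythrocyte markers summed to 251 to 1608 CPM over 7 genes in KO and to 75.0 to 429 CPM in NTC tumors, and the 10 keratinocyte markers to 3.69 to 47.1 CPM and 2.00 to 11.5 CPM. At 0 in at least 1 tumor were 1 erythrocyte, 7 keratinocyte and 5 adipocyte markers. The part of these cells in the results was not tested beyond the muscle fit.

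Around the 10 genes, 30 further genes of glycolysis and lactate transport were listed, of which 20 passed the filter. Of these, 15 were lower and 5 higher in KO tumors, with a median log2 fold change of -0.26 (-0.13 with the leukocyte score and -0.44 with the muscle score as covariate). None passed the threshold, 6 were lower and none higher at an unadjusted p under 0.05 by edgeR (4.85% of all genes tested were lower there), and 4 had separate groups (1.47% of all genes), namely *Slc2a3*, *Gpi1*, *Ldhb* and *Bsg*. The tissue-restricted isoforms *Pgk2*, *Pklr* and *Slc16a8* had no read in any KO tumor. No comparison with the NTC tumors is drawn from this.

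The 21 regulators of the pathway, such as the PFKFB enzymes, the pyruvate dehydrogenase complex and its kinases, showed no common direction, with 11 lower, 10 higher and a median of -0.057 (-0.12 to -0.013 over the alternatives). *Pdhb*, a subunit of pyruvate dehydrogenase, ran from 63.5 to 69.1 CPM in KO and from 76.6 to 85.9 CPM in NTC tumors (log2 fold change -0.29, SE 0.07, edgeR adjusted p = 0.194). *Dlat* was at -0.30, *Pdk3* at -0.29 and *Pdk1* at -0.28. *Hif1a*, the regulated subunit of HIF-1, had 442 and 436 CPM on average in KO and NTC tumors, and *Myc* 37.8 and 39.5 CPM. Among 20 genes of side branches (pentose phosphate, glycogen, serine and glycerol), 7 were lower and 13 higher, with a median of 0.082. Without NTC replicate 1 they were 9 and 11, with a median of 0.023, the lowest of the alternatives, and it was 0.043 with the leukocyte score and 0.053 with the muscle score or without NTC replicate 3. *Pgm1* and *Gys1*, of glycogen synthesis, were lower at -0.58 and -0.64, *Pgm2* was at -0.32, and *Gpd1l* was at 0.35.

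Of 15 other genes known as hypoxia targets, 14 were lower in KO tumors and only *Adm* was higher, with a median log2 fold change of -0.71. By edgeR 10 of the 15 were lower at an unadjusted p under 0.05, beside 4.85% of all genes tested, and none passed the threshold. *Ndrg1* measured 64.2, 54.0, 51.0, 72.4 and 67.4 CPM in KO and 163, 146, 101, 195 and 103 CPM in NTC tumors (log2 fold change -1.19, SE 0.19, edgeR adjusted p = 0.0822). *Ero1l*, an oxidoreductase of the endoplasmic reticulum, was at -1.07 (SE 0.27, edgeR adjusted p = 0.226), *Vegfa*, the angiogenic growth factor, at -0.91 (SE 0.23, edgeR adjusted p = 0.235), and *P4ha2*, a collagen prolyl hydroxylase, at -0.71 (SE 0.16, edgeR adjusted p = 0.185). Of the 15 genes these 4 had every KO tumor below every NTC tumor, as 1.47% of all genes did. Without NTC replicate 1, 13 of the 15 were lower and *Egln3* and *Adm* higher, with a median of -0.70. The part of oxygen supply or tumor size in these values was not tested.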

How the data were processed

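Total RNA of 10 tumors was sequenced on an Illumina NovaSeq instrument. Per the labels the authors used FastQC, Trimmomatic, HISAT2 and HTSeq with the build mm10, and they deposited raw counts of reads per gene, without normalization. The annotation release and the strand setting are not given in the sources used here. Summary rows of the count files (35.3% to 64.1% of their reads) were left out, rows of a repeated symbol were kept apart, and reads that map to several places were not counted, so near-identical copies are uncertain. Rows named as copies of the 10 genes held at most 0.844% of the count of their gene (*Eno1b*). Counts come from reads without molecular identifiers.

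KO and NTC tumors were grouped by the labels and compared with edgeR 4.0.16 (R 4.3.3), by its quasi-likelihood test with TMM factors, filterByExpr and Benjamini-Hochberg adjustment over all genes tested. A standard error is the size of a log2 fold change over the square root of its F. CPM (per 1000000 reads) are TMM-normalised, and log2 values and ratios used a prior count of 2. Ratios were compared by exact permutation tests over tumors, and correlations by 100000 permutations. GENCODE M21 (GRCm38) gave positions, lengths and 3′ UTRs. Whether the authors used it is not known (53265 of 55291 symbols have the same number of rows in both). Promoters and miRNAs are from RefSeq. Python 3.11.15, pandas 2.3.3, numpy 2.4.6, scipy 1.17.1 and matplotlib 3.10.9 were used. The procedures were tested on simulated data.

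Named outside the 10 genes were other glycolysis genes with a mean of at least 10 CPM in a group, up to 4 genes of each list with the smallest p, and the genes most like the 10. *Hif1a*, *Myc*, *Adm*, *Egln3*, *Eno1b*, the isoforms without a read and those without a partner difference were named after their values were seen. The genes and lists were chosen with earlier results of these data known. Alternatives were DESeq2 1.42.0, RLE normalization, no filter, no fold threshold, a minimum of 10 counts in every tumor, each tumor left out, the replicate number as a block, leukocyte and muscle scores as covariates, summed rows of 1 symbol, other prior counts (0.5 and 5) and transcript lengths. DESeq2 without NTC replicate 1, the length of the other *Aldoa* gene and the separation of groups without each tumor were added after seeing the data.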

Additional observations from a re-analysis of the deposited data

Results flagged for a closer look

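By Dixon's test (gap over range above 0.71 in a group of 5), no value of the 10 genes or of their ratios stood apart from its group. In 64 groups tested, 10 values did, where chance flags about 1 in 20. NTC replicate 1 accounts for 7 of them. Its reads on genes (11896643, against 24145795 to 28682130 in the other NTC tumors), its normalization factor (0.628 against 1.02 to 1.11) and its melanoma cell markers (12093 CPM against 20556 to 22926 CPM) were low. Its genes with a count (33193 against 22192 to 23831) and its markers of fibroblasts (6862 CPM against 74.1 to 1842 CPM), adipocytes (608 CPM against 46.3 to 191 CPM) and skeletal muscle (13.2 CPM against 2.46 to 2.76 CPM) were high. The KO tumors that stood apart were replicate 4 for skeletal muscle markers (262 CPM against 4.31 to 51.8 CPM), replicate 2 for erythrocyte markers (1608 CPM against 251 to 512 CPM) and replicate 3 for keratinocyte markers (47.1 CPM against 3.69 to 16.1 CPM).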

How the results depend on the processing

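None of the 10 genes was called under any of the 20 alternatives run for the calls. The number of genes called among all those tested was 3 and became 6 with at least 10 counts in every tumor, 7 with the leukocyte score, 1 with the muscle score, 5 with no fold threshold, 96 with DESeq2, 761 with DESeq2 without a filter and without NTC replicate 1, and 1 to 17 with 1 tumor left out. Correlations of same-numbered tumors ran from -0.29 to 0.63, and 1 of 5 tumors was most like its own number. This cannot settle whether the replicate numbers pair the tumors. With the replicate block 1 gene was called. The SE of *Slc2a1* was then 0.12, against 0.24 without the block, at an edgeR adjusted p of 0.250. The signs of 9 of the 10 genes stayed the same under all 19 alternatives for their fold changes. *Pgam1* turned to -0.066 with the muscle score and to -0.011 without NTC replicate 1 (range without 1 tumor -0.011 to 0.19). The low second *Aldoa* row, at 0.11, ranged from -0.041 to 0.36 without 1 tumor. Among the ratios, 3 that lie near 0 changed sign when 1 tumor was left out: *Slc2a1* to *Slc2a3* ranged from -0.023 to 0.22, *Hk2* to *Hk1* from -0.042 to 0.019 and *Aldoa* to *Aldoc* from -0.13 to 0.071. The depth of NTC replicate 1, with 1144 to 22284 counts per gene on the main rows of the 10, was lower than elsewhere but left no gene near 0.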
